A study of Mus musculus with 2 samples.

Results

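The genes of the splicing machinery were examined in ATAC-seq data from mouse liver. In this assay the Tn5 transposase inserts adaptors where DNA is exposed, so that reads accumulate over open promoters and enhancers. The genes were taken as those whose symbol begins with *Srsf* and a digit, *Hnrnp*, *Sf3a* or *Sf3b* and a digit, *Prpf* and a digit, or *Snrp*. Of the 69549 open regions, 85 were assigned to such a symbol. They belonged to 55 genes of 27433, and 48 of these genes had a promoter region, compared with 13163 genes in all. A promoter region was a region centred within 1000 bp of the transcription start site (TSS) of the gene it was assigned to, and the region with the most signal was used for each gene. None of the 48 genes had more than 1 such region.

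The control library came from livers of *Mettl3* flox/flox mice, which carry loxP sites in both copies of the gene for the m6A methyltransferase METTL3. The other library came from *Mettl3*-HKO livers, with the genotype *Mettl3* flox/flox Alb-Cre+/-, in which the albumin promoter drives Cre in hepatocytes and the other liver cells keep the gene. Both groups were C57BL/6 mice of 8 weeks on normal chow and shared the floxed alleles, so that the presence of Cre and the loss of *Mettl3* cannot be told apart. Liver from 4 mice was pooled into the 1 library of each group, which leaves no measure of the variation between mice. They are called the control library and the HKO library from here on. Every comparison is therefore between 2 libraries, and the 95% Clopper-Pearson intervals given with the ratios cover counting error only. Whether the counts include duplicate reads is not given in the sources used here. Nuclei were taken from whole liver, where fewer cells of a type and less open DNA per cell cannot be told apart.

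Splicing removes introns from nuclear transcripts in a spliceosome that is assembled from small nuclear ribonucleoproteins (snRNPs), each made of a small RNA, a ring of Sm proteins (of related LSm proteins in U6) and proteins of its own. U1 binds the 5′ splice site, U2 binds the branch point through the SF3A and SF3B complexes, and the U4/U6.U5 tri-snRNP then joins and is rearranged for catalysis. SR proteins bind exonic enhancers and recruit these particles, and hnRNPs coat nascent transcripts and often repress splice sites. Many of these genes are expressed in nearly every cell, from CpG-rich promoters.

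The DNA just upstream of 5 of these genes is shown here, because their promoters span the range described in the following paragraphs. *Snrpb2* had the only one of the 48 promoter regions with a signal at least 2-fold lower, *Snrpg*, an Sm ring gene, was near that level, and *Hnrnpa0* had the log2 ratio nearest to 0 among the hnRNPs on the authors' scale. *Hnrnpa2b1* and *Srsf2* had large open regions that each also held the start of a neighbouring gene. The sequences are the 250 bases before the RefSeq start on GRCm38.p6, written 5′ to 3′ on the strand of the gene, and capitals mark the letters GGGCGG (GC box), CCGGAA (ETS), CCAAT and TATAAA on either strand. They lie at chr2:143062819-143063068 (+), chr6:86371290-86371539 (+), chr13:58128557-58128806 (-), chr6:51469846-51470095 (-) and chr11:116853095-116853344 (-), in the order given. For *Hnrnpa2b1*, which has 2 RefSeq starts, the start nearest the centre of the region was used.
Snrpb2: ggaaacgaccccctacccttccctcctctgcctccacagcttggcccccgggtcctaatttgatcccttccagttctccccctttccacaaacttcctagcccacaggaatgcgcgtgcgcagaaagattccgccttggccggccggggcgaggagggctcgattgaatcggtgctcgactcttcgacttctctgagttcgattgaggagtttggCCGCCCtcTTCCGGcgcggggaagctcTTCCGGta
Snrpg: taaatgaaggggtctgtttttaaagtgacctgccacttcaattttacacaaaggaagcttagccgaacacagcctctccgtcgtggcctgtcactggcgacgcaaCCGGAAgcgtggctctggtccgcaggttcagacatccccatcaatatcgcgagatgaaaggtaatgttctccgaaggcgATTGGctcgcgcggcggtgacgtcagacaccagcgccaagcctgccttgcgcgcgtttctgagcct
Hnrnpa0: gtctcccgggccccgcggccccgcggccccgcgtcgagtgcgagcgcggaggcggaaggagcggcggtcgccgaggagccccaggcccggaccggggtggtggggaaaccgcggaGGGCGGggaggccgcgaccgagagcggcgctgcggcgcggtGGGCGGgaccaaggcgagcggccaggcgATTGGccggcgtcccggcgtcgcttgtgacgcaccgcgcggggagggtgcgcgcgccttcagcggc
Hnrnpa2b1: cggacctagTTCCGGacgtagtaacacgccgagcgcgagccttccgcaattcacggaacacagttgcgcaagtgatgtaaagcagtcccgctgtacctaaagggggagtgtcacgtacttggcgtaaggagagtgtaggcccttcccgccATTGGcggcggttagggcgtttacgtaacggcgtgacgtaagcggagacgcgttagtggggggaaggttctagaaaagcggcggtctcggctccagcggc
Srsf2: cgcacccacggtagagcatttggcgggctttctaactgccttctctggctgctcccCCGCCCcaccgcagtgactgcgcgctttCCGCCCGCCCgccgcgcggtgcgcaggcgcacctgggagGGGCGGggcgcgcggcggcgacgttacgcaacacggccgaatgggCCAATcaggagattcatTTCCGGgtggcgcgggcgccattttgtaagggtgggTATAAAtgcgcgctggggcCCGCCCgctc

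These stretches held different letters. The *Snrpb2* stretch had 2 ETS matches close to the start and 1 GC box, and the *Snrpg* stretch had 1 ETS match and 1 CCAAT box. That of *Hnrnpa0* was 81.2% G or C, with 2 GC boxes and 1 CCAAT box, and no ETS match. The *Srsf2* stretch held 5 GC box matches, of which 2 overlapped, beside 1 ETS match, 1 CCAAT box and 1 TATA box. *Hnrnpa2b1* had 1 ETS match and 1 CCAAT box and no GC box.

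The regions held 16764348 counts of the control library and 12919369 of the HKO library, which were 31.7% and 22.3% of the totals that the authors used to scale them. On that scale, called the authors' scale here, HKO over control gave a median log2 ratio of −0.38 for all regions and −0.57 for all promoters. Of the hepatocyte markers, 8 of 8 had a promoter region. Their summed signal was 71.6 RPM (counts scaled to a common library size) in the control library and 47.1 in the HKO library. Their median log2 ratio was −0.77, with a range from −1.32 (*Serpina1a*) to 0.015 (*Alb*, with 480 and 533 counts). Compared with promoters of like mean signal, described below, 3 were above and 5 below, with a median difference of −0.12. Endothelial markers had a promoter region for 7 of 8 genes, with summed signals of 3.03 and 7.01 RPM and a median of 1.60. These regions were weak, with median counts of 19 and 55, and 1 of the 7 had a peak called in both libraries. *Cdh5*, *Kdr*, *Lyve1*, *Stab2* and *Tek* had a peak in the HKO library only, so their higher signal there is partly set by selection. Cholangiocyte markers were less well covered (5 of 8 genes, 15.8 and 12.1 RPM, median −0.19). So were stellate markers (2 of 8, *Reln* with 690 and 132 counts and *Col1a1* with 37 and 43, 13.8 and 3.05 RPM in sum). Macrophage markers had a region for 1 of 8, *C1qa*, with 8 and 40 counts (0.17 and 0.71 RPM) and a peak in the HKO library only. A promoter region was found for 0 of 8 lymphocyte markers. The part of these cell types in the values of the splicing genes was not tested.

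On the authors' scale all 48 promoters of the splicing genes had a lower signal in the HKO library, as did 85.1% of all promoters and 9078 of 9576 promoters of other genes in the members' range of signal. The summed counts of the 48 were 48987 in the control library and 37490 in the HKO library. Single promoters had at least 168 counts in the first library, with a median of 923.5, and at least 104 in the second, with a median of 689.5. The median log2 ratio was −0.58, so that the typical promoter kept 67.0% of its signal, and the values ran from −1.10 to −0.18. The interval lay wholly below 0 for 47 of the 48 genes, against 74.3% of all promoters and 8467 of 9576 promoters of other genes in the members' range of signal, and it reached 0 for *Prpf4b*. The direction depends on the scale: the members' median was −0.20 when centred on all regions, −0.0098 when centred on all promoters, −0.067 when scaled to the reads in regions, and 0.059 when centred on the strongest 10% of promoters.

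Few of these promoters stood out by size. A signal at least 2-fold lower in the HKO library was found for 1 of the 48 genes, *Snrpb2*, against 15.9% of all promoters on the authors' scale. This count was 0 under each of the 4 other scalings. With regions assigned by RefSeq start it was 3 of 56 genes, a set that differs from the 48. At 1.5-fold lower it was 23 of 48, against 48.2% of all promoters. A signal at least 2-fold higher was found for 0 genes, against 3.84% of all promoters and 31 of the 9576 promoters of other genes whose signal lay in the range of the members. The log2 ratios of the members were also close together, with an SD of 0.22 and an interquartile range of 0.33. Over all promoters the interquartile range was 0.58, and over those 9576 promoters it was 0.46. The median half-width of the counting interval of a member was 0.14.

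**Figure D1:**
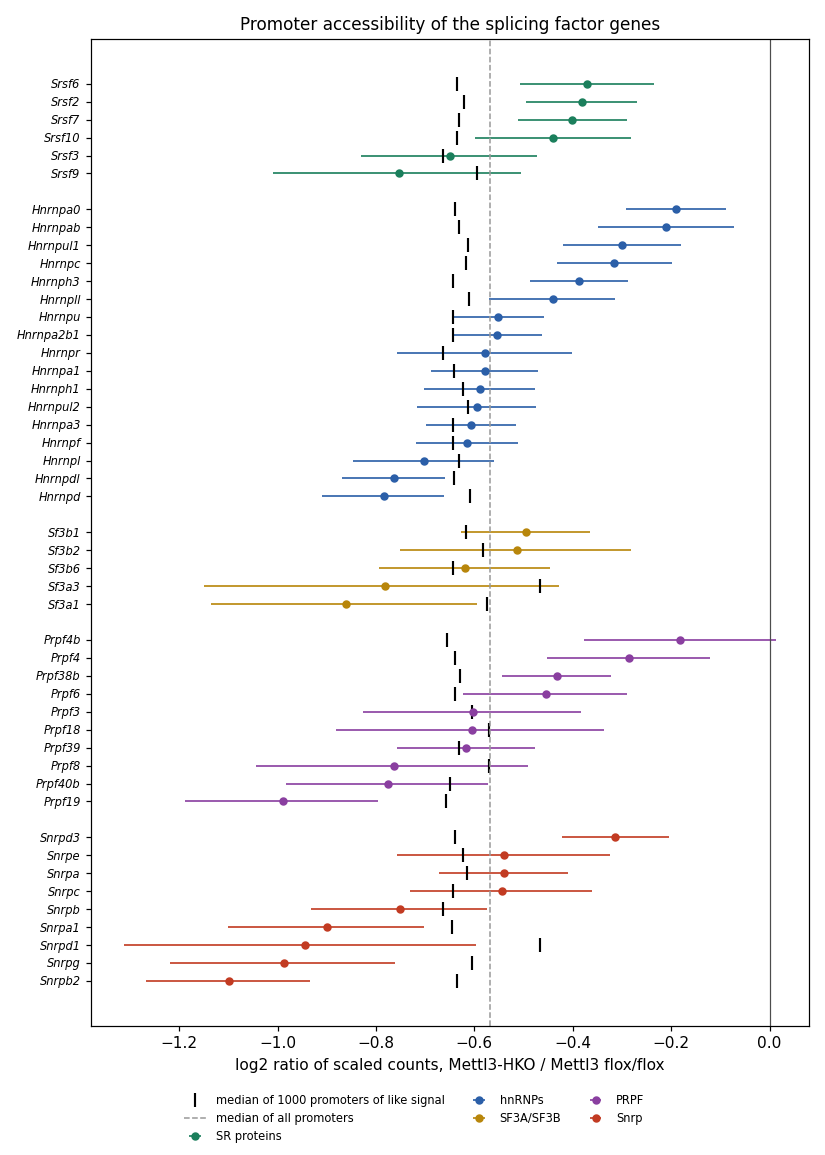
The x axis gives the log2 ratio of scaled counts, *Mettl3*-HKO over *Mettl3* flox/flox, with 1 point for each of 47 genes, lines for the 95% counting interval, colours for the 5 gene families, a black bar for the median of promoters of like signal and a dashed line for the median of all promoters. The points lie below 0 on the authors' scale, between −1.10 (*Snrpb2*) and −0.18 (*Prpf4b*), whereas the members' median is 0.059 when centred on the strongest 10% of promoters, and SR genes sit mostly to the right of their black bars.

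Because weak and strong promoters had different ratios, each gene was also set against the median of the 1000 promoters of other genes nearest to it in mean signal, a difference that does not depend on the scale. The median difference of the members was 0.065, with a range from −0.48 (*Snrpd1*) to 0.47 (*Prpf4b*). The value for *Prpf4b* rests on a region upstream of the gene, and it was 0.27 for the region at the RefSeq start. There were 33 genes above the promoters of like signal and 15 below. The interval lay wholly above the like-signal median for 16 genes, compared with 28.6% of all promoters, and wholly below it for 8 genes, compared with 29.1%. The log2 ratio of 30 genes, 62.5%, fell between the quartiles of the promoters of like signal, a range that by definition holds 50% of promoters.

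The splicing genes had strong and wide promoter regions. Their median signal was 17.5 RPM in the control library and 11.9 RPM in the HKO library, whereas all promoters had medians of 8.05 and 5.15 RPM. They were also longer, with a median of 1170 bp compared with 808 bp for all promoters. Per length, the medians were 14.6 and 9.76 RPM per kb for the members and 9.82 and 6.32 RPM per kb for all promoters. Every member promoter had a peak called in both libraries, as did 87.1% of all promoters and 99.3% of other promoters in the members' range of signal.

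**Figure D2:**
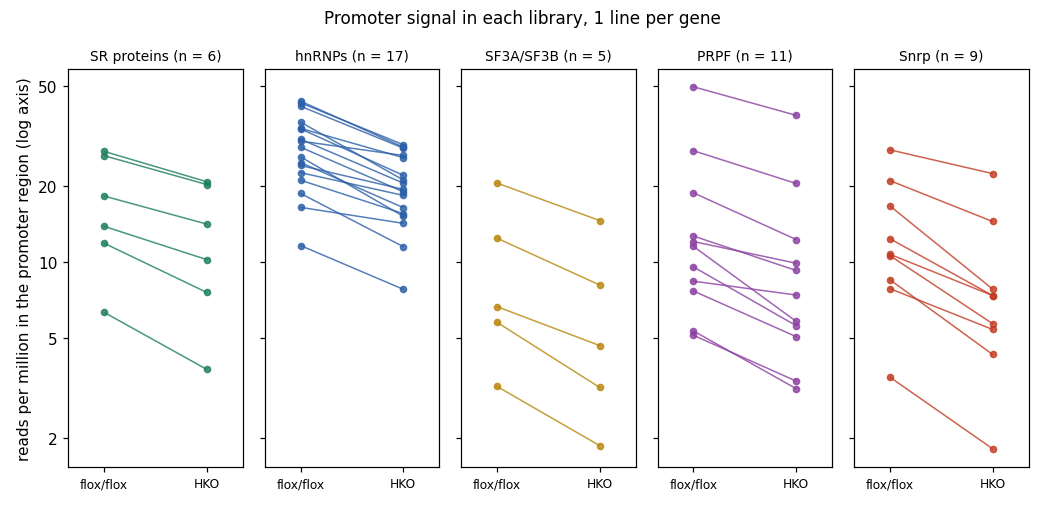
The y axis, on a log scale, gives the signal of each promoter region in RPM, with 1 panel per family and 1 line per gene joining the control library to the HKO library. Every line runs downward on the authors' scale, from medians of 28.6 to 19.4 RPM for hnRNPs and of 6.64 to 4.65 RPM for SF3A/SF3B, and the members' median ratio is 0.059 instead when centred on the strongest 10% of promoters.

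The SR protein genes had the smallest differences of the 5 families on the authors' scale. Their 6 promoters had a median of −0.42, and the median difference from promoters of like signal was 0.21, with 5 genes above and 1 below. The family's median was −0.043 when centred on all regions and above 0 on the other scales tried, at 0.15 centred on all promoters, 0.091 scaled to the reads in regions and 0.22 centred on the strongest 10% of promoters. The interval lay wholly above the like-signal median in 4 of the 6 genes and wholly below it in 0. The shares of all promoters were 28.6% and 29.1%.

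*Srsf2*, which encodes an activator of exon inclusion found in nuclear speckles, had 1397 counts in the control library and 1178 in the HKO library (log2 ratio −0.38, interval −0.49 to −0.27). *Srsf7*, the strongest SR promoter, had 1453 and 1209 counts (−0.40, −0.51 to −0.29), and *Srsf6* had 965 and 820 counts (−0.37, −0.51 to −0.23). These 3 genes and *Srsf10*, with 731 and 592 counts (−0.44, −0.60 to −0.28), lay 0.20 to 0.26 above promoters of like signal. *Srsf10* encodes a protein that represses splicing when it is dephosphorylated, and SRSF3 and SRSF10 have both been linked to the m6A reader YTHDC1. *Srsf3* had 626 and 438 counts (−0.65, −0.83 to −0.47), a difference from like signal of 0.013. The lowest was *Srsf9*, with 332 and 216 counts (−0.75, −1.01 to −0.50), which was 0.16 below promoters of like signal, within its interval. The region of *Srsf2* spanned 116852353 to 116853911 on chromosome 11 and ended in intron 1, that of *Srsf3* 29032075 to 29033112 on chromosome 17, and that of *Srsf9* 115326606 to 115327626 on chromosome 5.

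The 17 hnRNP promoters were the strongest and widest of the 5 families. They had a median length of 1514 bp, a median signal of 18.3 RPM per kb in the control library, and a median signal at the 92.9 percentile of all promoters. Their median log2 ratio was −0.58 on the authors' scale (0.060 when centred on the strongest 10% of promoters), close to that of all members. There were 14 genes above promoters of like signal and 3 below (*Hnrnpd*, *Hnrnpdl* and *Hnrnpl*), with a median difference of 0.087. The value of *Hnrnpl* rests on a region centred 818 bp from the TSS used. The region at its RefSeq start had −0.42 (−0.54 to −0.30), an estimate above the highest like-signal median of any member, −0.47. The interval lay wholly above the like-signal median for 6 of the 17 genes and wholly below it for 2. Among all promoters these shares were 28.6% and 29.1%.

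*Hnrnpa0*, a gene without introns whose protein binds AU-rich elements, had nearly equal counts, 1597 and 1538, a log2 ratio of −0.19 (−0.29 to −0.09). This was 0.45 above promoters of like signal and at the 94.8 percentile among them. *Hnrnpab*, with 870 and 826 counts (−0.21), and *Hnrnpul1*, with 1196 and 1067 (−0.30), followed. At the other end were *Hnrnpd*, which encodes the mRNA decay factor AUF1, with 1382 and 881 counts (−0.78, −0.91 to −0.66), and its close relative *Hnrnpdl*, with 1900 and 1229 counts (−0.76, −0.87 to −0.66). Both intervals lay below the like-signal median, by 0.17 and 0.12 at the estimate. The genes lie close together on chromosome 5, with regions at 99978019 to 99979551 and 100038352 to 100040178.

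Other hnRNP genes, some of them closely related, lay between *Hnrnpa0* and *Hnrnpd*. *Hnrnpc*, whose protein measures transcript length and binds U tracts, had 1277 and 1127 counts (−0.32, −0.43 to −0.20), 0.30 above promoters of like signal. *Hnrnph3* had 1795 and 1508 counts (−0.39, −0.49 to −0.29). The related *Hnrnph1* (1510 and 1103, −0.59, −0.70 to −0.48) and *Hnrnpf* (1787 and 1282, −0.61, −0.72 to −0.51) were 0.035 and 0.028 above promoters of like signal. The interval of *Hnrnph3* overlapped that of *Hnrnph1* but not that of *Hnrnpf*. The core particle genes *Hnrnpa1* (1624 and 1194, −0.58), *Hnrnpa2b1* (2268 and 1698, −0.55) and *Hnrnpa3* (2302 and 1661, −0.61) were 0.062, 0.089 and 0.036 above promoters of like signal. Of these, *Hnrnpa2b1* and *Hnrnpc* encode proteins described as readers of m6A or of the RNA structure that it alters. The remaining 5 hnRNP promoters were those of *Hnrnpl* (988 and 667, −0.70, but 1210 and 994, −0.42, for a region at its RefSeq start), which binds CA repeats, *Hnrnpll* (1116 and 903, −0.44), *Hnrnpr* (613 and 451, −0.58), *Hnrnpu* (2197 and 1646, −0.55), which also binds DNA, and *Hnrnpul2* (1312 and 954, −0.60).

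The proteins of SF3A and SF3B, which hold U2 at the branch point, came from the weakest promoters of the 5 families per length. The 5 genes had a median length of 732 bp, a median signal of 9.81 RPM per kb in the control library and a median log2 ratio of −0.62 on the authors' scale (0.018 when centred on the strongest 10% of promoters). All 5 lay between the quartiles of promoters of like signal. *Sf3b1*, the subunit that clamps the branch site and is often mutated in blood cancers, had 1087 and 847 counts (−0.50, −0.63 to −0.36) in a region centred in intron 1 at 55026602 to 55027822 on chromosome 1. *Sf3b2* had 350 and 269 counts (−0.51), and *Sf3b6*, which contacts the branch point, had 656 and 469 (−0.62). At the estimate the SF3A genes were lower, with 303 and 183 counts for *Sf3a1* (−0.86, −1.14 to −0.59) and 168 and 107 for *Sf3a3* (−0.78, −1.15 to −0.43). Both intervals overlapped those of *Sf3b1*, *Sf3b2* and *Sf3b6*. The order did not hold for regions at the starts of *Sf3b5* (−1.28), *Sf3b3* (−0.73) and *Sf3a2* (−0.69), described below. Of the 5 genes with a promoter region, only the interval of *Sf3a1* lay wholly to one side of its like-signal median, 0.29 below at the estimate. *Sf3a3* was 0.32 below, but its counts were the lowest of any member in the control library and its interval included the like-signal median.

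The PRPF genes encode proteins of several snRNPs and ran from −0.99 to −0.18, with an interquartile range of 0.28. Their 11 promoters had a median log2 ratio of −0.60 on the authors' scale (0.034 when centred on the strongest 10% of promoters), a median difference from like signal of 0.014, and 7 genes above and 4 below. *Prpf19*, the ubiquitin ligase of the complex that activates the spliceosome, had the lowest, with 608 and 336 counts (−0.99, −1.19 to −0.80), 0.33 below promoters of like signal. The U5 scaffold *Prpf8*, at the catalytic centre, had 280 and 181 counts (−0.76, −1.04 to −0.49), a difference of −0.19 that its interval spanned. *Prpf40b* had 504 and 323 counts (−0.78).

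*Prpf3* and *Prpf4* encode proteins that sit together on U4/U6. *Prpf3* had 404 and 292 counts (−0.60, −0.83 to −0.38) and *Prpf4* had 636 and 573 (−0.29, −0.45 to −0.12), with intervals that overlapped. The tri-snRNP bridge *Prpf6* (669 and 536, −0.45), the U1-associated *Prpf39* (994 and 712, −0.62), the second-step factor *Prpf18* (269 and 194, −0.61) and *Prpf38b* (1462 and 1190, −0.43) lay within 0.20 of promoters of like signal. *Prpf4b* encodes a kinase that phosphorylates tri-snRNP proteins. Its region had 442 and 428 counts (−0.18, −0.38 to 0.01), but was centred 889 bp upstream of the TSS, in the last exon of a gene without a symbol. A second region, centred 168.5 bp from the RefSeq start of *Prpf4b* and assigned to a gene without a symbol, had 656 and 559 counts (−0.37, −0.53 to −0.20).

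The *Snrp* genes, which encode Sm ring proteins and the proteins specific to U1 and U2, had the lowest median log2 ratio of the 5 families. It was −0.75 on the authors' scale and below 0 on each scale tried, at −0.37 centred on all regions and −0.11 centred on the strongest 10% of promoters. Compared with promoters of like signal the median difference of the 9 promoters was −0.087, with 4 genes above and 5 below. The interval lay wholly below the like-signal median for 4 genes and wholly above for 1, compared with 29.1% and 28.6% of all promoters. From the SR genes to the *Snrp* genes the family medians spanned 0.33, which is also the interquartile range of all 48 members.

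Both *Snrp* genes for proteins specific to U2 had promoters below those of like signal. *Snrpb2*, which encodes U2 B″, had 882 counts in the control library and 452 in the HKO library (−1.10, −1.27 to −0.93), 0.46 below promoters of like signal and at the 9.3 percentile among them. Its region lay at 143062664 to 143063729 on chromosome 2 and was centred in intron 1. *Snrpa1*, which encodes the partner protein U2 A′, had 559 and 329 counts (−0.90, −1.10 to −0.70), 0.25 below. By contrast, the U1 proteins encoded by *Snrpa* (1112 and 840, −0.54, −0.67 to −0.41) and *Snrpc* (566 and 426, −0.54, −0.73 to −0.36) were 0.074 and 0.098 above promoters of like signal. The interval of *Snrpb2* overlapped neither that of *Snrpa* nor that of *Snrpc*. The interval of *Snrpa1* did not overlap that of *Snrpa* but overlapped that of *Snrpc*.

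Genes for the subunits of the Sm ring, which is built from one copy of each protein, ranged from −0.99 to −0.31. *Snrpg* had 448 and 248 counts (−0.99, −1.22 to −0.76) and *Snrpd1* had 183 and 104 (−0.95, −1.31 to −0.60), and both intervals lay below the like-signal median. *Snrpb* (653 and 426, −0.75) and *Snrpe* (413 and 312, −0.54) were in between. *Snrpd3*, at the other end, had 1474 and 1303 counts (−0.31, −0.42 to −0.21), 0.33 above promoters of like signal. The interval of *Snrpd3* overlapped neither that of *Snrpg* nor that of *Snrpd1*.

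**Figure D3:**
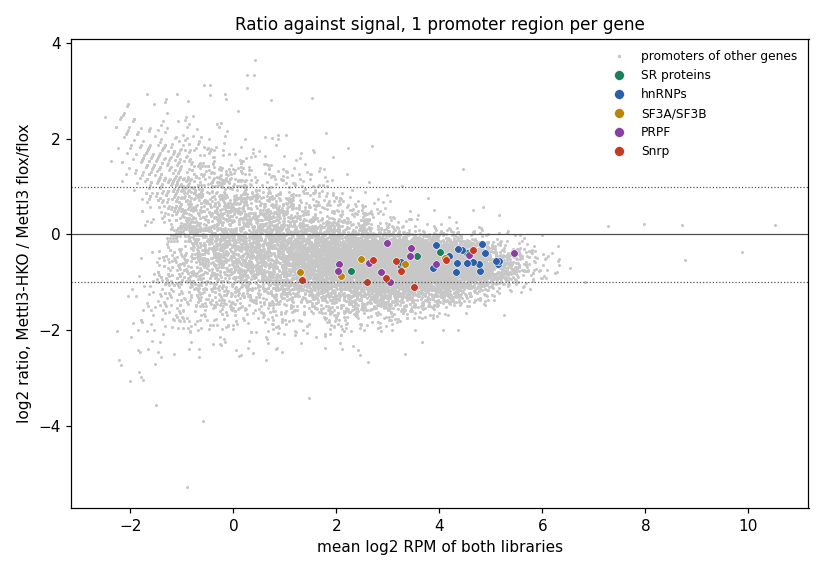
The x axis gives the mean log2 RPM of both libraries and the y axis the log2 ratio, *Mettl3*-HKO over *Mettl3* flox/flox, for 1 promoter region per gene, with grey dots for other genes, coloured points for the 48 splicing genes and dotted lines at 2-fold. Of the 48 coloured points, 39 lie above the median signal of all promoters, and *Sf3a3* is the weakest. On the authors' scale 1 of the 48, *Snrpb2*, is below the lower dotted line.

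Of the 55 genes, 7 had no promoter region under their own symbol, namely *Hnrnph2*, *Hnrnpk*, *Hnrnpm*, *Sf3b5*, *Snrpd2*, *Snrpf* and *Srsf12*. Regions at RefSeq starts were assigned to another or an unnamed gene for 3 of these. At the start of *Snrpf*, an Sm ring gene, a region had 523 and 277 counts (−1.05, −1.27 to −0.84), more than 2-fold lower in the HKO library, at that of *Snrpd2*, another, 954 and 841 (−0.32, −0.45 to −0.18), and at that of *Hnrnph2* 843 and 683 (−0.44, −0.59 to −0.29). For *Hnrnpk* and *Hnrnpm* the region lay outside the window, 1065 bp from the TSS used for *Hnrnpk* (1814 and 1428 counts, −0.48) and 1672 bp for *Hnrnpm* (464 and 423, −0.27). Both were centred near the RefSeq start, at 161 bp and 270 bp. The region that overlapped *Sf3b5*, a small SF3B subunit, lay at 13007897 to 13008992 on chromosome 10, 3101 bp from the TSS used, and held the first base of the RefSeq gene at 13008450. It had 1305 and 589 counts (−1.28, −1.43 to −1.14), and so was more than 2-fold lower in the HKO library, but it is not in the counts of promoters given here because it lay outside the window. The members nearest the limit on the inner side were *Prpf4b* at 889 bp, *Prpf38b* at 887 bp and *Hnrnpl* at 818 bp, the last in the last exon of a gene without a symbol. For *Srsf12* the one region found lay in intron 1, with 60 and 61 counts (−0.11, −0.65 to 0.43). With the regions at RefSeq starts the Sm ring genes ranged from −1.05 to −0.31.

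RefSeq lists 66 protein-coding genes whose symbols follow the same patterns, and 11 of them had no region under their symbol. A region at the RefSeq start was found for 9 of these, and its log2 ratio ranged from −1.02 to −0.33 with a median of −0.62. The SR genes among them were *Srsf1* (862 and 695, −0.45), *Srsf4* (885 and 631, −0.62), *Srsf5* (1154 and 984, −0.37) and *Srsf11* (926 and 808, −0.33). *Srsf1* encodes the founding SR protein. The start of *Snrpn*, an imprinted gene expressed from the paternal copy, lay in a region assigned to *Snurf* with 480 and 259 counts (−1.02, −1.25 to −0.80). *Sf3a2*, the remaining SF3A subunit, shared a region assigned to *Plekhj1* with 1164 and 791 counts (−0.69, −0.83 to −0.56), and *Sf3b3* one assigned to *Cog4* with 389 and 258 (−0.73, −0.96 to −0.50).

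Several of these genes share their open region with a gene that starts in the opposite direction. A head-to-head partner starting in the same region was found for 12 of the 48 promoters, or 25%. Among all promoters of protein-coding genes with a symbol the share was 7.44% (757 of 10175). Among those in the upper quartile of signal it was 12.9% (365 of 2832). These shares were not matched for width, and a wider region can hold more starts. Member regions had a median of 1170 bp, compared with 808 bp for all promoters. *Hnrnpa1* and *Hnrnpa2b1* each faced a gene for a heterochromatin protein, *Cbx5* and *Cbx3*. Other partners were *Mfsd11* for *Srsf2*, *Cdc26* for *Prpf4*, *Gucd1* for *Snrpd3*, *Ccdc157* for *Sf3a1*, *BC024978* for *Snrpa*, *Enoph1* for *Hnrnpdl*, *Ttc9c* for *Hnrnpul2*, *4930524J08Rik* for *Hnrnpd* and *4933407O12Rik* for *Hnrnpll*. The median log2 ratio was −0.55 for the 12 shared promoters and −0.60 for the 36 others.

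Sequences from 250 bases before to 50 after the start were found in the RefSeq promoter table for 40 of the 48 promoters. The ETS letters CCGGAA occurred on either strand in 20 of the 40, or 50%. They occurred in 28.2% of 7924 other open promoters, in 32.5% of the 3182 whose signal lay between the quartiles of the members, and in 14.9% of all 32851 starts in the table. By family they were found in 4 of 5 SF3A/SF3B, 5 of 7 *Snrp*, 6 of 14 hnRNP, 3 of 8 PRPF and 2 of 6 SR promoters. The median log2 ratio was −0.55 for members with these letters and −0.58 for those without.

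For the other letters searched, the shares in the splicing genes were closer to those in other open promoters. The GC box GGGCGG was found in 70% of the members and 67.6% of other open promoters, compared with 35.7% of all starts, and CCAAT in 50%, 38.7% and 37.4%. The shares for the members, other open promoters and all starts were 15%, 10.6% and 7.15% for the E-box CACGTG, 10%, 6.59% and 13.6% for TATAAA, 7.5%, 6.94% and 6.34% for the YY1 core AAGATGG, and 2.5%, 5.62% and 2.71% for GCGCATGC, which is part of the NRF1 site. The median G and C content was 60.7% for the members and 61.7% for other open promoters. It was 69.2% in SR and in hnRNP promoters, 59.0% in SF3A/SF3B, 57.8% in PRPF and 57.3% in *Snrp* promoters. Among other open promoters sorted into 4 classes by this content, the median difference from like signal stayed between −0.0016 and 0.013.

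Outside the promoters, 37 regions were assigned to 25 of the genes, and most were weak. They include the regions of *Hnrnpk*, *Hnrnpm* and *Sf3b5* at the RefSeq starts of these genes. The median counts were 66 in the control library and 63 in the HKO library, and a peak was called in both libraries for 21, in the first only for 9 and in the second only for 7. The median log2 ratio was −0.33, compared with −0.27 for the 55162 regions outside promoters in all. It was 0.24 when centred on all promoters and 0.31 when centred on the strongest 10% of promoters. At least 2-fold lower were 6 of the 37, against 18.8% of all such regions, and at least 2-fold higher were 3, against 15.6%. The 13 regions with 200 or more counts in all had a median of −0.67 (−0.56 for all such regions), and the 24 weaker regions a median of −0.12 (0.038 for all such regions).

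The strong regions outside promoters included some with a log2 ratio below that of the promoter of the same gene. *Hnrnpa0* had a region 5376 bp downstream of its TSS, at 58122646 to 58123714 on chromosome 13 and outside any annotated gene, with 838 and 390 counts (−1.24, −1.42 to −1.06), whereas its promoter had −0.19 (−0.29 to −0.09). The other regions of *Sf3b5* had ratios like that of the region over the gene, with 351 and 148 counts 8282 bp upstream of the TSS used (−1.38, −1.67 to −1.10) and 88 and 50 counts 11468 bp downstream (−0.94, −1.48 to −0.43). *Sf3a3* had an upstream region with 318 and 130 counts (−1.42, −1.73 to −1.13) and a second one beside it, at the 3′ end of *Fhl3*, with 782 and 541 (−0.67, −0.83 to −0.51). In intron 12 of *Hnrnpu* a region had 847 and 491 counts (−0.92, −1.09 to −0.76).

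Regions with more counts in the HKO library were weaker. The strongest of them was assigned to *Sf3b1* from 43855 bp downstream of its TSS, beyond the end of the gene, with 77 and 198 counts (1.22, 0.84 to 1.63). *Sf3b1* also had a region in intron 7 with 40 and 12 counts (−1.79, −2.94 to −0.91). *Hnrnpa2b1* had 3 regions outside its promoter, of which the one 1157 bp upstream had 204 and 103 counts (−1.11, −1.48 to −0.77) and the others spanned 9872 to 10839 bp downstream with log2 ratios of −0.77 and −0.14.

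**Figure D4:**
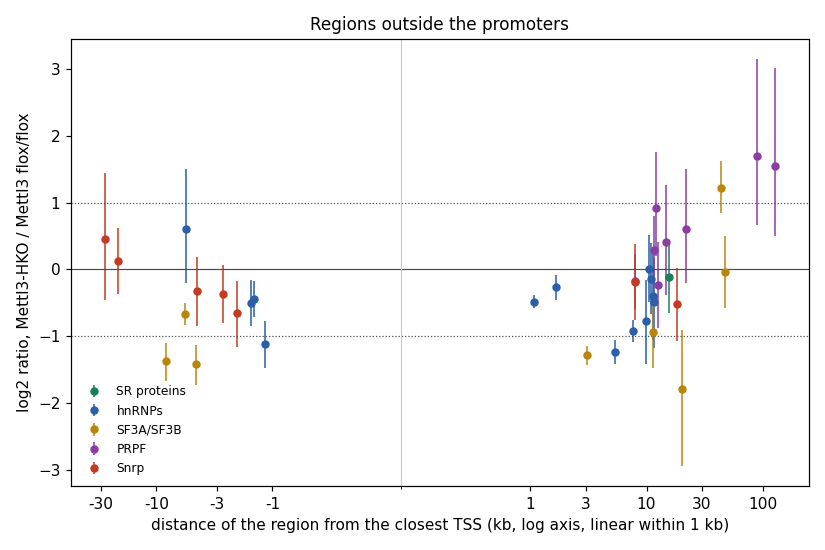
The x axis gives the distance of each of the 37 regions from the TSS it was assigned to (in kb, log axis that is linear within 1 kb) and the y axis its log2 ratio, *Mettl3*-HKO over *Mettl3* flox/flox, with 95% counting intervals, colours for the families and dotted lines at 2-fold. On the authors' scale 6 regions lie below the lower dotted line, the nearest 1157 bp upstream of *Hnrnpa2b1*, and 3 lie above the upper one, all over 40 kb downstream.

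Other genes of the spliceosome and its regulators, from a list of 55, had a promoter region in 47 cases. Their median log2 ratio was −0.60 and their median difference from promoters of like signal was 0.016, with 28 genes above and 19 below. In this list 5 of the 47 promoters passed the 2-fold mark downward, compared with 15.9% of all promoters, and 0 upward, compared with 3.84%. The lowest were *Aqr*, a helicase that binds introns (758 and 326 counts, −1.35, −1.54 to −1.16), and *Cwc22*, which delivers the exon junction complex (1076 and 489, −1.27, −1.43 to −1.12). *Dhx8*, the helicase that releases the finished mRNA (582 and 290, −1.14), and the U6 ring genes *Lsm6* (1105 and 553, −1.13) and *Lsm8* (2135 and 1080, −1.12) followed. The highest was *Ptbp1*, the polypyrimidine tract repressor (1325 and 1489, 0.03, −0.08 to 0.14), and *Snrnp70*, the third protein specific to U1, had 858 and 812 counts (−0.22, −0.36 to −0.08).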

How the data were processed

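ATAC-seq of mouse liver was analysed for 1 pooled library of each genotype. The authors trimmed the reads, used BWA to align them to GRCm38, discarded mitochondrial and improperly paired reads, and called peaks in each library with MACS2, duplicates included. The counting tool and any shift of read ends for Tn5 are not given in the sources used here. The deposited table lists, per region, raw counts and RPM in both libraries and the closest TSS. The deposited RPM values equal the count plus 1, scaled by a library total, which was recovered from them. The authors' columns of fold enrichment and log2 ratio were not used.

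Repeated rows (5272 of 74821) were left out. Log2 ratios were computed from counts with 1 read added, on the authors' library totals, and intervals from the Clopper-Pearson interval of the share of counts. With 1 library per group, no test was made and no p-value is given. Promoters of like signal were the 1000 promoters of other genes nearest in mean log2 RPM. RefSeq gene positions and promoter sequences were on GRCm38.p6. The intervals were tested on simulated counts.

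The members and lists were chosen with earlier results of these data known. Named by rule were members at least 2-fold different, the strongest, lowest and highest promoter of each family, known m6A-linked and core factors, and the genes with most regions outside promoters. Single values of 1 member are not reported here. Other members were named after their values were seen, to account for each family. Alternatives to the scaling, added count, window, filters, threshold and assignment were run. The scripts ran in Python 3.11.15 with scipy 1.17.1, pandas 2.3.3, numpy 2.4.6 and matplotlib 3.10.9.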

Additional observations from a re-analysis of the deposited data

How the results depend on the processing

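Scaling moved the members' median log2 ratio most, from −0.58 to −0.20 centred on all regions, −0.0098 on all promoters, −0.067 by reads in regions and 0.059 on the strongest 10% of promoters. The genes at least 2-fold lower, 1 on the authors' scale, were 0 under each of these 4 scalings. They were 23 of 48 at a threshold of 1.5-fold, which 48.2% of all promoters passed. With regions assigned by RefSeq start they were 3 of 56 genes, a different set that does not include *Sf3b5*. This alternative was chosen after seeing the data. That alternative moved the difference of *Prpf4b* from like signal from 0.47 to 0.27. The median outside promoters moved from −0.33 to 0.24 centred on all promoters and 0.31 on the strongest 10%. The median difference from promoters of like signal stayed between 0.051 and 0.085 under the alternatives run, and the number of genes below like signal between 15 and 18. The count of genes at least 2-fold higher was 0 throughout. No paired analysis was possible because each group is 1 pooled library and no test was made. Counting error, at a median of 85 and 81 counts per region, is the only error these libraries show, so weak regions are the least certain.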
